A study of Rattus norvegicus with 9 samples.

Results

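The genes described here are the 10 that carry out or control fatty acid synthesis and desaturation, namely Srebf1, Acly, Me1, Acaca, Fasn, Elovl6, Scd, Fads1, Fads2 and Gpam, out of 14217 genes with a singly named probe set on the array. They were picked by symbol: a probe set counted where the platform annotation gives it exactly 1 of these symbols, and the main probe set of a gene is the one with the highest mean over the arrays. All 10 had a probe set, 16 in total, with 2 for each of 6 genes and 1 for each of 4. RNA came from pancreatic islets of adult male Wistar rats, 7 weeks old at the start, that were fed for 30 days a cafeteria diet, with 66% of calories as fat, or standard chow, with 8%. There were 5 cafeteria and 4 standard Affymetrix arrays, each an independent sample by the labels, and a further standard array that the labels count was not analysed here; the strain, sex and islet isolation were common to both groups. Groups follow the sample titles, source names and descriptions. The labels' diet field states the opposite diet for 9 of 9 samples. Using it would swap the 2 groups with their sizes, means and ranges, turn the sign of every log2 fold and invert every fold. The p-values and the correlations across arrays would stay the same.

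Fatty acid synthesis turns surplus carbohydrate into fat in the cytosol. ATP citrate lyase (Acly) splits citrate into acetyl-CoA, acetyl-CoA carboxylase 1 (Acaca) makes malonyl-CoA from it, and fatty acid synthase (Fasn) builds palmitate with NADPH that malic enzyme 1 (Me1) helps to supply. Elovl6 lengthens the chain, Scd puts the first double bond into saturated chains, Fads1 and Fads2 desaturate polyunsaturated chains, and Gpam attaches the first fatty acid to glycerol phosphate. Srebf1 encodes SREBP-1, the membrane-bound transcription factor that switches on these genes in liver when insulin is high. In beta cells malonyl-CoA also restrains the entry of fatty acids into mitochondria, and citrate export has been studied as a signal coupled to glucose-stimulated insulin secretion.

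None of the 10 genes passed the test for a difference between the diets. Signals were compared as log2(signal + 16) with limma over the 18625 probe sets above a filter set at the 40th percentile of mean log2 signal (about 91.1 as a signal), with Benjamini-Hochberg adjustment over all of them. The main probe sets of 8 members passed that filter on low values; those of Scd and Gpam did not. Of the 8, 0 had an adjusted p under 0.05 (lowest 0.859) and 0 an unadjusted p under 0.05, against 0% and 5.8% of all probe sets tested. The groups overlapped for all 16 probe sets of the members, and did not overlap for 1.76% of those tested. The log2 fold was above 0 for 6 of the 8, against 48.1% of all probe sets tested, and the median of the 8 was 0.020 beside -0.0090 over all. Their absolute log2 folds had a median of 0.040, beside 0.13 over all probe sets tested. The spread between arrays of 1 group, as an SD on the log2 scale, had a median of 0.16 for the 8 and 0.26 for all. These 8 are the brightest probe sets of their genes, and the comparison with all was not matched for signal. The other tested probe sets of members had log2 folds of 0.099 (Srebf1), 0.14 (Me1), -0.098 (Fasn) and 0.13 (Elovl6). Their within-group SDs were 0.60, 0.21, 0.20 and 0.20. The absolute log2 fold was smaller than the gene's own within-group SD for 7 of the 8 and larger for Elovl6. Leaving out standard arrays 1 and 3 and cafeteria array 3, which earlier results of these data had singled out for stress gene, lymphocyte gene and beta-actin signals, gave 0 members at an adjusted p under 0.05 and a median of -0.052.

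The 95% intervals state how large a difference these arrays still allow. Over the 8 members they ran from 0.786-fold (Srebf1) to 1.43-fold (Elovl6), cafeteria over standard, so a 2-fold change in either direction lay outside each of these 8 intervals. Smaller changes lay within them. Folds are on the log2(signal + 16) scale, which understates the change of dim probe sets. In bulk islets, less RNA per cell and fewer cells that express a gene cannot be told apart.

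**Figure D1:**
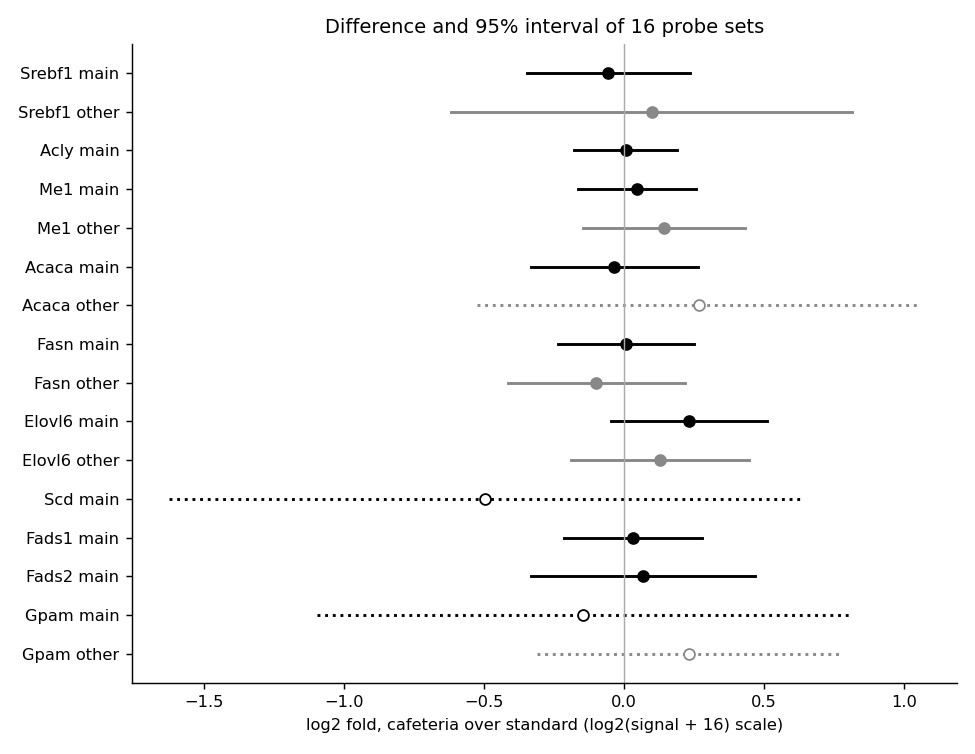
Log2 fold of cafeteria over standard on the log2(signal + 16) scale (x axis) for the 16 probe sets of the 10 genes (y axis), with lines for 95% intervals; black is a gene's main probe set, grey its other one, and open points with dotted lines are probe sets below the filter, with intervals from the fit without a filter. Every interval includes 0, and that of the Elovl6 main probe set runs from -0.046 to 0.51.

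The regulator Srebf1 had closely similar mean signals on both diets. Its main probe set read 744, 617, 641, 630.0 and 598 on cafeteria arrays 1 to 5, against 765, 766, 543 and 634 on standard arrays 1 to 4. Standard arrays 1 and 2 were the highest and standard array 3 the lowest of all 9, so the cafeteria values lay wholly inside the standard range. The means were 646 ± 56.9 (SD, n = 5) in cafeteria islets and 677 ± 109 (SD, n = 4) in standard islets, a log2 fold of -0.056 ± 0.13 (SE) with a 95% interval of 0.786 to 1.18-fold (limma adjusted p = 0.962; exact two-sided permutation p = 0.6587). The other Srebf1 probe set spread over 4.11-fold between its lowest and highest array and had a log2 fold of 0.099 ± 0.33, opposite in sign to the main one (adjusted p = 0.974).

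Srebf1 is transcribed from more than 1 start site, and the variants SREBP-1a and SREBP-1c begin with different first exons. RefSeq (GRCr8) lists 2 start sites for the rat gene; which transcripts the array's 2 probe sets detect was not tested. The windows from 250 bases before to 50 after each start are shown because they are the regions around the 2 listed starts. Which start belongs to which variant was not tested. Capitals mark the CCAAT box (CCAAT, which NF-Y binds) and the GC box (GGGCGG, which Sp1 binds) on either strand, the binding sites of proteins that commonly act beside SREBPs. The E-box CACGTG was searched too and is in neither window. Matches of these motifs do not overlap each other here.
Srebf1 upstream start, chr10:45529115-45529414 on the minus strand: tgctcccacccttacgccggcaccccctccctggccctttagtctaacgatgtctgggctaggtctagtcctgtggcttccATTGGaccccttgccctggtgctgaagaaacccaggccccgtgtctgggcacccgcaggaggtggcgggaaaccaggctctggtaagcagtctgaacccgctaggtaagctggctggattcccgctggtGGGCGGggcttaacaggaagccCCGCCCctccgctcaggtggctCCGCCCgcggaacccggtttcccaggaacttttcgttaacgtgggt
Srebf1 downstream start, chr10:45518961-45519260 on the minus strand: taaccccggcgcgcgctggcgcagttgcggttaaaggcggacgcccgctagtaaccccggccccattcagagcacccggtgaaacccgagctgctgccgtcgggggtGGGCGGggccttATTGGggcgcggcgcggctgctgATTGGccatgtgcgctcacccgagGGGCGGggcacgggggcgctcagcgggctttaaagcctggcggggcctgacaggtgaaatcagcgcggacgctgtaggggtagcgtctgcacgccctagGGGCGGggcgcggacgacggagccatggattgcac
The upstream window holds 1 CCAAT box and 3 GC boxes, and the downstream window 2 and 3. Of 33469 RefSeq rat promoter windows of this length, 37.5% hold a CCAAT box, 33.1% a GC box and 6.42% the E-box. Of the 10 members, 7 have a window in this table; a CCAAT box is in a window of 4 of the 7, a GC box in 5 and the E-box in 0. These are matches of letters in short windows and are given as a description.

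Among the genes that supply acetyl-CoA and NADPH, Acly was the least variable of the 8 members tested, with a within-group SD of 0.086 on the log2 scale. Its signals were 17092, 16833, 16004, 15415 and 15757 on cafeteria arrays 1 to 5, against 14879.6, 15615, 16446 and 17772 on standard arrays 1 to 4. The whole set spanned 1.19-fold from its lowest to its highest array, both of which were standard ones. Acly averaged 16220.1 ± 715 (SD, n = 5) in cafeteria islets and 16178 ± 1240.5 (SD, n = 4) in standard islets, with a log2 fold of 0.0057 ± 0.085 (SE) and an interval of 0.883 to 1.14-fold (limma adjusted p = 0.996; exact permutation p = 0.9365).

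Me1, which oxidises malate to pyruvate and yields NADPH, read 2962, 2769.6, 3195, 3334 and 3487 on cafeteria arrays 1 to 5, against 3266, 3056, 2917 and 2939 on standard arrays 1 to 4. Cafeteria arrays 4 and 5 were above all standard arrays and cafeteria array 2 below them all. The means were 3149.5 ± 287 (SD, n = 5) in cafeteria islets and 3044 ± 160.0 (SD, n = 4) in standard islets, a log2 fold of 0.045 ± 0.097 (SE) and an interval of 0.892 to 1.19-fold (limma adjusted p = 0.960; exact permutation p = 0.5476). A further Me1 probe set had a log2 fold of 0.14 ± 0.13, of the same sign, with 4 of 5 cafeteria arrays above the standard mean (adjusted p = 0.881).

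Of the enzymes that build the chain, Acaca signals were 886, 843, 1129, 716 and 960.4 on cafeteria arrays 1 to 5, against 939.6, 800.1, 940.4 and 1007 on standard arrays 1 to 4. The highest and the lowest of the 9 were both cafeteria arrays, numbers 3 and 4. Acaca averaged 907 ± 153 (SD, n = 5) in cafeteria islets and 922 ± 87.0 (SD, n = 4) in standard islets, a log2 fold of -0.034 ± 0.14 (SE) with an interval of 0.795 to 1.20-fold (limma adjusted p = 0.978; exact permutation p = 0.8254). Its other probe set, below the filter, ranged from 59.7 to 132 in cafeteria and 33.0 to 164 in standard islets, with a log2 difference of 0.27 that is opposite in sign to the main one.

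Fasn, the multifunctional enzyme that gives the pathway its name, read 2227, 1870.4, 1895, 1963 and 2288 on cafeteria arrays 1 to 5, against 1920.2, 2315, 1772 and 2154 on standard arrays 1 to 4. Each group held both low and high arrays, and the highest and lowest of the 9 were standard arrays 2 and 3. The mean was 2049 ± 195 (SD, n = 5) in cafeteria islets and 2040.3 ± 241 (SD, n = 4) in standard islets. The log2 fold was 0.0082 ± 0.11 (SE) with an interval of 0.850 to 1.19-fold (limma adjusted p = 0.996; exact permutation p = 0.9365). On the other Fasn probe set the log2 fold was -0.098 ± 0.15, with the opposite sign, and cafeteria arrays 4 and 5 read 466 and 464, below the lowest standard array at 485 (adjusted p = 0.933).

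**Figure D2:**
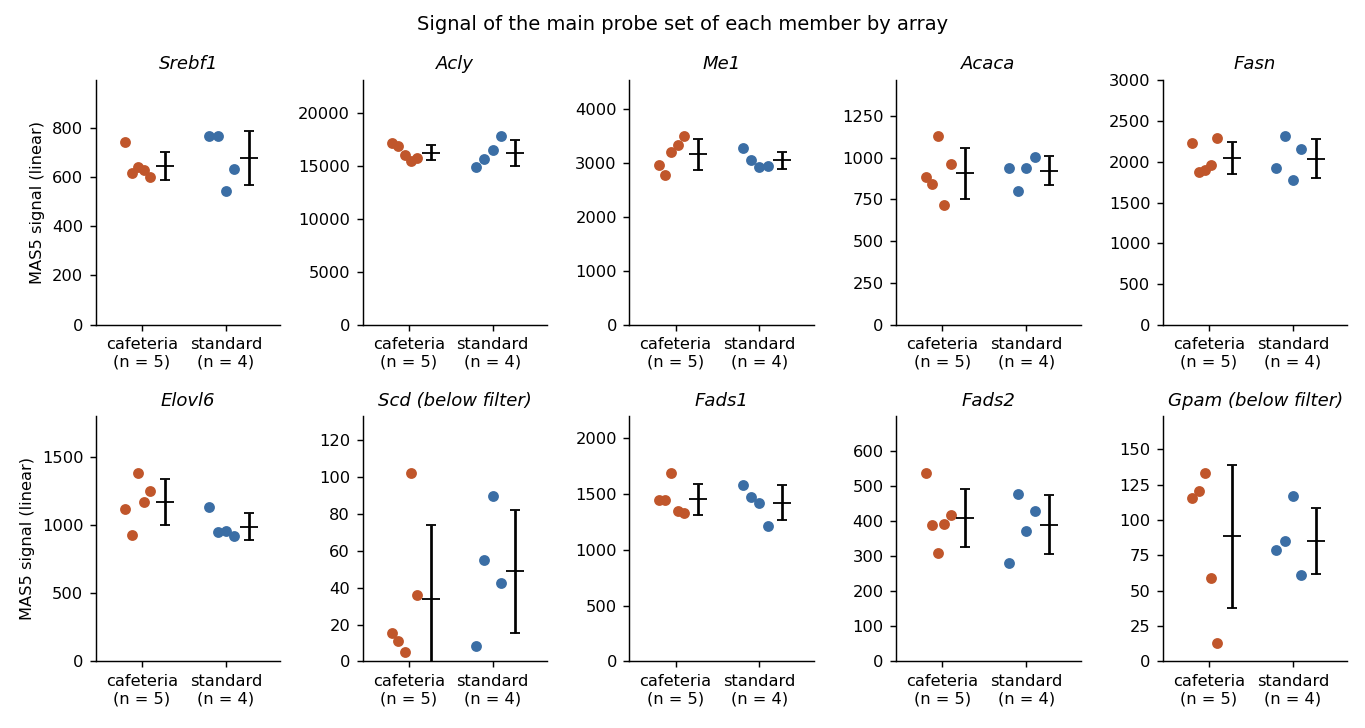
MAS5 signal on a linear scale from 0 (y axis) of the main probe set of each of the 10 genes, with a point per array for 5 cafeteria and 4 standard arrays and the mean with SD beside the points (the lower SD bar of Scd in cafeteria islets is cut at 0). The groups overlap in all 10 panels, and for Elovl6 3 of 5 cafeteria arrays lie above the highest standard array.

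Elovl6, which extends palmitate to stearate, had the largest log2 fold of the 8 members tested, above its within-group SD of 0.18, without passing the test. Its signals were 1118, 927, 1382, 1172 and 1249 on cafeteria arrays 1 to 5, against 1132, 947, 957 and 917 on standard arrays 1 to 4. Cafeteria arrays 3, 4 and 5 were above every standard array, cafeteria array 1 was just below standard array 1, and cafeteria array 2 lay within the standard range. Elovl6 averaged 1169.8 ± 168 (SD, n = 5) in cafeteria islets and 988 ± 97.2 (SD, n = 4) in standard islets, a log2 fold of 0.23 ± 0.13 (SE) with an interval of 0.969 to 1.43-fold. The unadjusted p was 0.0945 and the limma adjusted p 0.859; the exact two-sided permutation p was 0.0952, where 0.0079 is the smallest that the assignments of 5 and 4 arrays allow. The other Elovl6 probe set had a log2 fold of 0.13 ± 0.15 (adjusted p = 0.910). On it cafeteria arrays 2, 3 and 4, at 591, 613 and 585, exceeded the highest standard array at 584. Cafeteria array 5 read 422 there, near the lowest standard array at 418. The arrays were thus ordered differently, and the 2 probe sets correlated at r = -0.053.

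The unadjusted p of Elovl6 was 0.0483 without standard array 1 (log2 fold 0.30, limma adjusted p = 0.555) and 0.0252 without cafeteria array 2 (0.31, adjusted p = 0.770). Other omissions lowered the log2 fold, and with each array left out in turn it lay between 0.17 and 0.31. Across the 9 arrays the ratio of 3' to 5' beta-actin control signal, a sign of RNA quality, was 2.79 to 5.63 in cafeteria and 3.00 to 4.84 in standard islets. Elovl6 signals correlated with its logarithm at r = 0.60 (exact permutation p = 0.0875, 0.219 adjusted over 10 genes) and rho = 0.53 (p = 0.148, adjusted 0.295), and r was 0.56 without the 2 arrays farthest from the median ratio. With the ratio as a covariate the log2 fold of Elovl6 was 0.21 and its unadjusted limma p 0.0827.

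Scd, the stearoyl-CoA desaturase that makes oleate in liver and fat, was dim in islets on both diets. The signals of its single probe set were 15.3, 11.0, 4.84, 102 and 35.9 on cafeteria arrays 1 to 5, against 8.14, 55.1, 89.5 and 42.3 on standard arrays 1 to 4. The highest and the lowest of the 9 were cafeteria arrays 4 and 3, and the groups overlapped. The mean log2 signal lay below the filter, so Scd was left out of the test. The log2 difference was -0.50, with a 95% interval of -1.62 to 0.63 in the fit without a filter (adjusted p = 0.929; exact permutation p = 0.4365). That interval holds changes of more than 2-fold. With each array left out the difference lay between -0.91 (without standard array 1; -0.88 without cafeteria array 4) and -0.20 (without standard array 3; -0.26 without cafeteria array 3).

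The near relative Scd2, which is no member and is named here after its values were seen, has 4 probe sets, of which 3 passed the filter. Its main one averaged 6258 ± 927 (SD, n = 5) in cafeteria and 6578 ± 1215 (SD, n = 4) in standard islets, a log2 fold of -0.068 ± 0.14 (limma adjusted p = 0.959). The others had log2 folds of -0.061 and 0.19 (adjusted p = 0.978 and 0.927) and, below the filter, -0.75, so their signs differed. Both genes encode stearoyl-CoA desaturases, and Scd2 is the form known from brain in rodents. Their RefSeq start windows (GRCr8) are shown to set the starts of the 2 desaturase genes side by side. Capitals again mark CCAAT and GC boxes on either strand.
Scd start, chr1:253231682-253231981 on the minus strand: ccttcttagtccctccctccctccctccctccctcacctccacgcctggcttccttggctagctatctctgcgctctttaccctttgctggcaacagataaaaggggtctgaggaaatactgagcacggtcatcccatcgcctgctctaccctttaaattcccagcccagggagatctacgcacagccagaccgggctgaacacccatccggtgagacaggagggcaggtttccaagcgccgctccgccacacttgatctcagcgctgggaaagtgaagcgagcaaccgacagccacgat
Scd2 start, chr1:253118127-253118426 on the plus strand: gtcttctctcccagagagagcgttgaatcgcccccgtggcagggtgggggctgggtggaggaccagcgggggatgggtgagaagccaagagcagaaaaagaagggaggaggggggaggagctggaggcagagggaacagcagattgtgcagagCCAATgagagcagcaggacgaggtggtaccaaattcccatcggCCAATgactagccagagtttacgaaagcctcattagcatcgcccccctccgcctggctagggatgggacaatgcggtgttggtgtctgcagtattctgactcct
The Scd window holds none of the 3 motifs searched, and the Scd2 window holds 2 CCAAT boxes and neither of the others. Longer stretches were not searched, and nothing is drawn from this about the factors.

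The front-end desaturases make long polyunsaturated fatty acids, Fads2 at an earlier step than Fads1. Fads1 signals were 1448, 1444, 1690.4, 1347 and 1335 on cafeteria arrays 1 to 5, against 1587, 1473, 1417 and 1213 on standard arrays 1 to 4. Cafeteria array 3 was the highest and standard array 4 the lowest, with the others intermingled. Fads1 averaged 1453 ± 143 (SD, n = 5) in cafeteria islets and 1423 ± 156 (SD, n = 4) in standard islets, a log2 fold of 0.032 ± 0.11 (SE) with an interval of 0.861 to 1.21-fold (limma adjusted p = 0.976; exact permutation p = 0.7381).

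Fads2 was the most variable of the 8 members tested, with a within-group SD of 0.29 on the log2 scale. It read 536, 388, 307, 392 and 417 on cafeteria arrays 1 to 5, against 281, 477, 372 and 427 on standard arrays 1 to 4. Cafeteria array 1 was the highest and standard array 1 the lowest, and 4 of 5 cafeteria arrays lay within the standard range. The means were 408 ± 82.7 (SD, n = 5) in cafeteria islets and 389 ± 83.8 (SD, n = 4) in standard islets, and the log2 fold was 0.069 ± 0.19 (SE) with an interval of 0.795 to 1.39-fold (limma adjusted p = 0.964; exact permutation p = 0.7302). Over the 9 arrays Fads2 correlated with the beta-actin ratio at r = -0.73 (exact permutation p = 0.0265, adjusted 0.215) and rho = -0.65 (p = 0.0666, adjusted 0.295), and Fads1 at r = 0.68 (p = 0.0431, adjusted 0.215) and rho = 0.57 (p = 0.121, adjusted 0.295). Without the 2 arrays farthest from the median ratio, r was -0.47 for Fads2 and 0.65 for Fads1. None of the 10 genes passed after adjustment, and the part of RNA quality in these signals was not tested.

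Gpam, the mitochondrial acyltransferase that opens glycerolipid synthesis, was below the filter on both of its probe sets. The main one read 116, 121, 133, 59.3 and 13.0 on cafeteria arrays 1 to 5, against 78.9, 85.4, 117 and 60.8 on standard arrays 1 to 4. Cafeteria array 5 stood far below all others, and cafeteria arrays 2 and 3 were the highest. The log2 difference was -0.15, with an interval of -1.10 to 0.81 in the fit without a filter (adjusted p = 0.976; exact permutation p = 0.8810); without cafeteria array 5 it was 0.26. The other probe set, with the opposite sign, ranged from 63.8 to 84.2 in cafeteria and 48.8 to 74.6 in standard islets and had 0.23, with 5 of 5 cafeteria arrays above the standard mean and 3 above the highest standard array (exact permutation p = 0.1111).

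Where a gene had 2 probe sets, their signals hardly followed each other from array to array. Over the 9 arrays the 2 probe sets of Fasn correlated at r = 0.013 (rho = 0.050), those of Elovl6 at -0.053 (0.12), of Me1 at 0.23 (0.18), of Srebf1 at 0.27 (0.37) and of Gpam at 0.37 (0.48). The lowest exact permutation p of r among these 5 was 0.330, and that of rho 0.194. The 2 probe sets of Acaca ran against each other, with r = -0.64 (exact permutation p = 0.0627, 0.376 adjusted over 6 pairs) and rho = -0.80 (p = 0.0138, adjusted 0.0830). Without the 2 arrays farthest from the median of the main probe set, r was -0.78 for Acaca and between -0.56 and 0.34 for the others. The sign of the log2 fold differed between the 2 probe sets for Srebf1, Acaca, Fasn and Gpam and was the same for Me1 and Elovl6.

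The main probe sets of the members did not move as a block across arrays. Because 2 probe sets of the same gene hardly followed each other either, this cannot decide whether the genes vary together. The 8 above the filter had a median deviation from their 9-array means that lay between -0.094 (array 2) and 0.082 (array 5) on cafeteria arrays, and between -0.081 (array 3) and 0.060 (array 1) on standard arrays. Cafeteria array 1 had 6 of 8 members above their mean, the most of any array, and cafeteria arrays 2 and 4 and standard array 3 had 2 of 8, the fewest. Of the 45 pairs among the 10 members, 24 had r above 0 and 21 below, with a median of 0.016. At an unadjusted exact permutation p under 0.05 there were 4 pairs, and 0 passed adjustment over the 45.

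**Figure D3:**
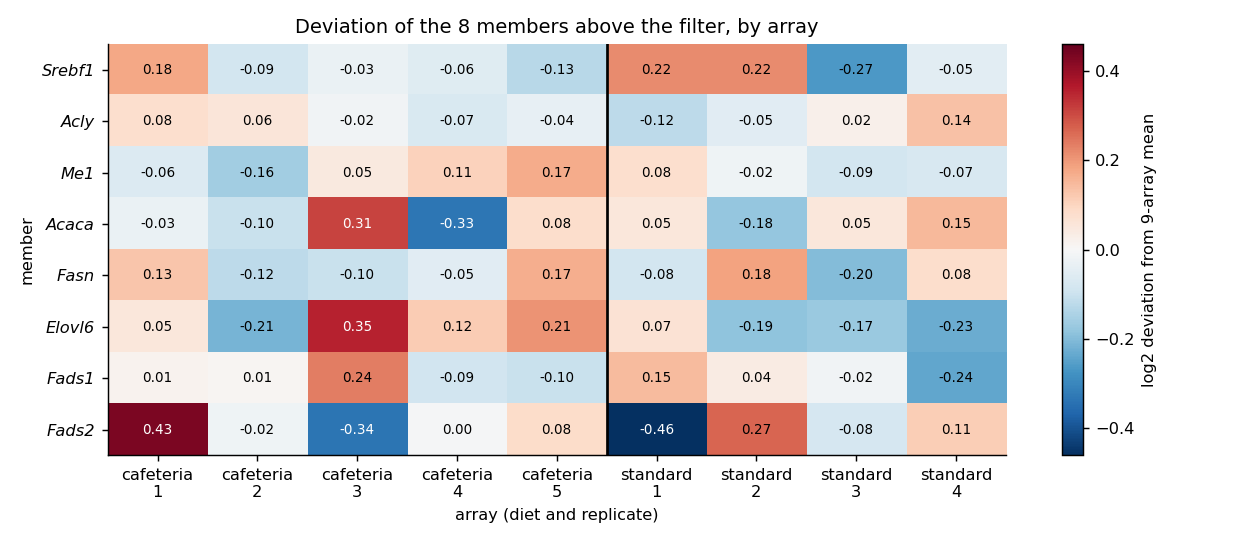
Deviation on the log2 scale of each of the 8 members above the filter (rows) from its own mean over 9 arrays, for 5 cafeteria arrays and 4 standard arrays (columns, parted by the line). Red and blue lie on both sides of the line in each row, and the widest deviations are those of Fads2 on cafeteria array 1 and standard array 1.

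The pair Me1 and Elovl6 had r = 0.76 (exact permutation p = 0.0203, adjusted 0.400) and rho = 0.78 (p = 0.0172, adjusted 0.481) over 9 arrays, and r was 0.67 without the 2 arrays farthest from the median of Me1 (cafeteria arrays 5 and 2). For Fasn and Fads2 the values were r = 0.70 (exact permutation p = 0.0355, adjusted 0.400) and rho = 0.77 (p = 0.0214, adjusted 0.481) over 9 arrays, and 0.68 without 2 arrays (standard array 2 and cafeteria array 5). Acly and Me1, which both feed Fasn, ran in opposite directions, with r = -0.71 (exact permutation p = 0.0327, adjusted 0.400) and rho = -0.72 (p = 0.0369, adjusted 0.544) over 9 arrays, and -0.76 without standard arrays 4 and 1. With the beta-actin ratio Acly had r = -0.61 (exact permutation p = 0.0853, adjusted 0.219) and rho = -0.58 (p = 0.108, adjusted 0.295), and Me1 r = 0.51 (p = 0.162, adjusted 0.266) and rho = 0.42 (p = 0.270, adjusted 0.449); without cafeteria arrays 3 and 1 these r were -0.67 and 0.51. The part of RNA quality in the correlations between members was not tested. Me1 and Gpam had r = -0.69 (exact permutation p = 0.0287, adjusted 0.400) and rho = -0.63 (p = 0.0760, adjusted 0.544) over 9 arrays; without cafeteria arrays 5 and 2 this r was -0.29, so the relation rests on those arrays. Deviations from the group means gave r = 0.79 for Me1 with Elovl6 and 0.71 for Fasn with Fads2. Srebf1 correlated with Fasn at r = 0.47 (exact permutation p = 0.195, adjusted 0.649) and rho = 0.47 (p = 0.213, adjusted 0.796), with 0.55 without standard arrays 2 and 1.

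**Figure D4:**
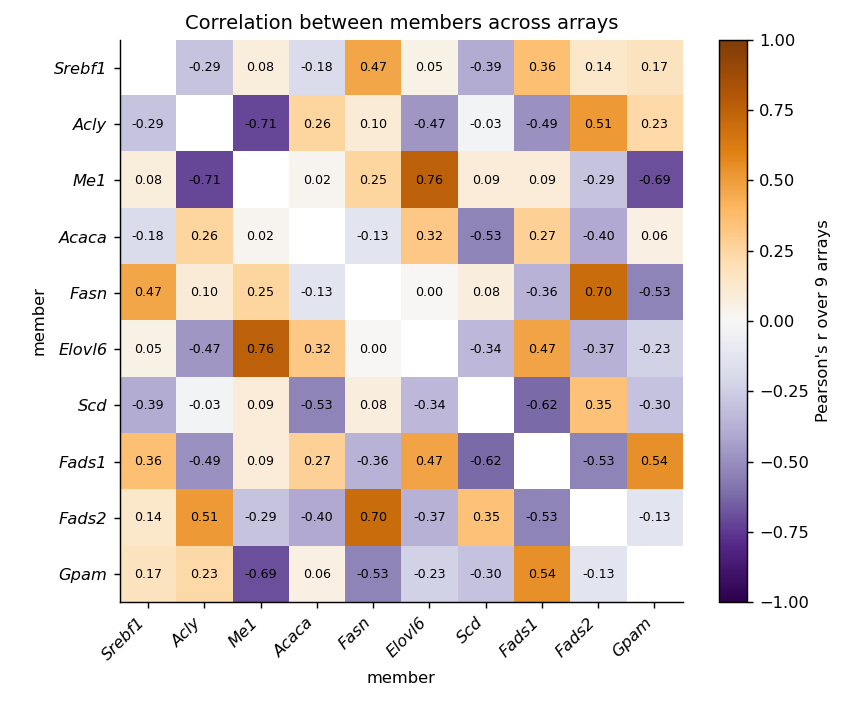
Pearson's r of log2(signal + 16) over 9 arrays for each pair of the 10 genes (both axes), with colour from -1 to 1 and r printed in each cell. Positive and negative pairs occur in near equal number, and the strongest is Me1 with Elovl6 at 0.76.

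Among 14041 tested probe sets of other singly named genes, those most like the main Fasn probe set over the 9 arrays belonged to Pigt (r = 0.909), Carmil2 (0.901), Plpp4 (0.901), Mgmt (0.892) and Cpm (0.869). These are the 5 highest of many correlations over few arrays and are given as a description.

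No gene of the wider pathway passed the test either. Of 101 further genes in 6 lists, 90 had a named probe set and 80 passed the filter; 0 of these had an adjusted p under 0.05 (limma, lowest 0.839), 4 an unadjusted p under 0.05, or 5.0% against 5.8% of all probe sets tested, and 0 had groups that did not overlap, against 1.76%. Log2 folds were above 0 for 43 and below 0 for 37.

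Regulators of lipogenesis had a median log2 fold of -0.043 over 18 genes, with 6 above 0 and 12 below. Insig1 and Insig2, which hold SREBPs in the endoplasmic reticulum, had 0.25 ± 0.14 and 0.18 ± 0.12 (SE), while Srebf2, the sterol-regulating relative of Srebf1, had -0.29 ± 0.20 and Mbtps1, the protease that first cleaves SREBPs, -0.26 ± 0.18. Signals of Insig1 were 1495 ± 310.4 in cafeteria islets and 1239 ± 124 in standard islets (SD). Insig1, Insig2, Srebf2 and Mbtps1 are named because they had the smallest unadjusted p-values of the 18. Their adjusted p-values by limma were all 0.859. Scap and Mbtps2, also on this list, had -0.12 ± 0.12 and -0.032 ± 0.14.

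Genes that supply acetyl-CoA and NADPH had a median of 0.039 over 11 genes, 8 above 0. Me2, the mitochondrial malic enzyme, had 0.34 ± 0.14, with signals of 724 ± 88.7 in cafeteria islets and 568 ± 87.9 in standard islets (SD). Mdh1, the cytosolic malate dehydrogenase that makes the malate used by Me1, had 0.26 ± 0.11, and the cytosolic NADPH source Idh1 0.18 ± 0.12. Slc25a1, which exports citrate from mitochondria to Acly, had -0.35 ± 0.21. Me2 and Mdh1 had unadjusted p-values of 0.0311 and 0.0392 and an adjusted p of 0.839 each.

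Around malonyl-CoA the median was -0.024 over 9 genes. Oxsm, the condensing enzyme of mitochondrial fatty acid synthesis, had 0.37 ± 0.18, Mlycd, which breaks down malonyl-CoA, -0.30 ± 0.16, the acyl carrier protein Ndufab1 0.088 ± 0.12 and Prkaa1, a catalytic subunit of the kinase that inhibits acetyl-CoA carboxylase, 0.088 ± 0.12. None passed (lowest adjusted p = 0.839).

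Other elongation and desaturation enzymes had 10 of 12 log2 folds above 0 and a median of 0.076. Elovl6 performs the condensing step of elongation; of the enzymes for the steps that follow, the ketoreductase Hsd17b12 had 0.23 ± 0.12 and the dehydratase Hacd3 0.22 ± 0.11, beside 0.23 for Elovl6 itself. Hsd17b12 and Hacd3 are named because they had the smallest unadjusted p-values of the list. The other dehydratases of that step had 0.067 ± 0.18 (Hacd1) and 0.047 ± 0.19 (Hacd2), and Hacd4 was below the filter at -0.0028. Of the other condensing enzymes, Elovl1 had 0.056 ± 0.11, Elovl2 0.093 ± 0.19 and Elovl5 0.0091 ± 0.12, and Elovl3 was below the filter at 0.28. Signals of Hacd3 were 4239 ± 483 in cafeteria islets and 3635 ± 317 in standard islets (SD). Degs1, a ceramide-forming desaturase, had 0.15 ± 0.092, and Fads3, the neighbour of Fads1 and Fads2, -0.28 ± 0.18. The adjusted p-values of Hsd17b12, Hacd3, Degs1 and Fads3 lay between 0.839 and 0.859 by limma.

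Genes of fatty acid activation and glycerolipid synthesis, the steps around Gpam, had 12 of 18 log2 folds below 0 and a median of -0.088. The acyltransferase Agpat2, which acts right after Gpam, had -0.36 ± 0.19, its relative Agpat4 -0.20 ± 0.13, and the acyl-CoA synthetases Acsl3 and Acsl4 -0.32 ± 0.16 and 0.17 ± 0.10 (lowest adjusted p = 0.839). Sterol-responsive targets of SREBPs had a median of 0.16 with 9 of 12 above 0. Among them Msmo1 had 0.33 ± 0.17, Dhcr7 0.29 ± 0.13, Fdps 0.23 ± 0.10 and Idi1 0.23 ± 0.13; Dhcr7 and Fdps had unadjusted p-values of 0.0365 and 0.0431, and none passed after adjustment. Whether the lists differ from each other was not tested.

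**Figure D5:**
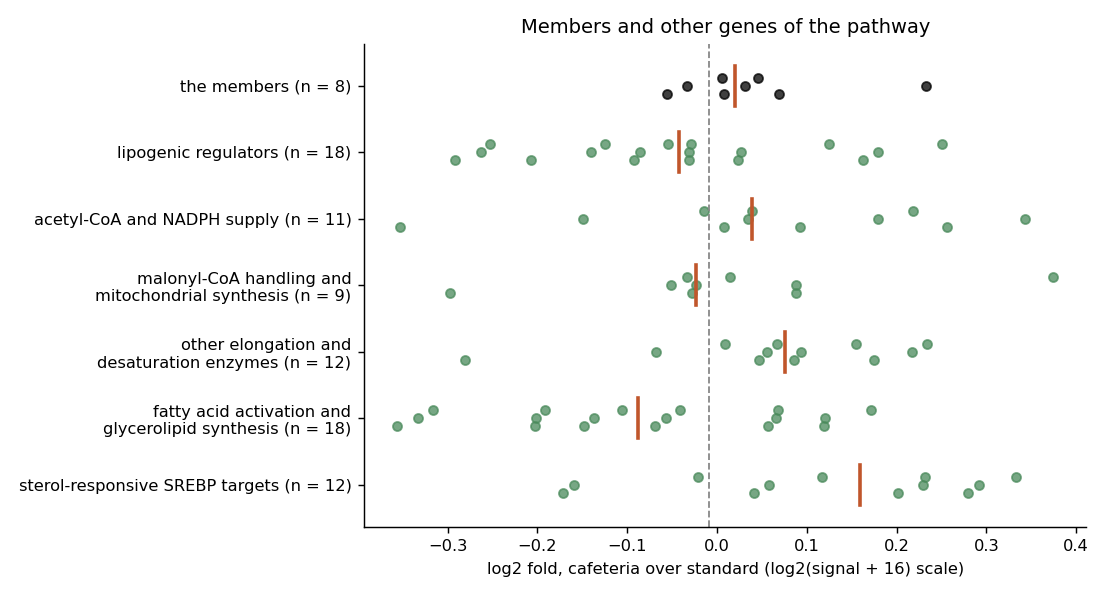
Log2 fold of cafeteria over standard (x axis) for the 8 tested members and the tested genes of 6 further lists (rows), a point per gene; short vertical bars are list medians and the dashed line the median of all 18625 probe sets tested. All 80 genes of the lists lie between -0.36 and 0.37, and the list medians between -0.088 and 0.16.

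Fat cells carry most of these enzymes, so markers of other cells are given beside the members. Of 10 adipocyte markers listed, 9 had a named probe set and 2 passed the filter, Fabp4, which endothelial cells also express, and Lipe; those of Adipoq, Lep, Plin1 and Cidec were below it. Adipoq signals were 59.4 to 99.1 in cafeteria and 13.0 to 77.6 in standard islets, a log2 difference of 0.75. The other markers had 0.55 (Lep), 0.36 (Cidec), 0.32 (Adrb3), 0.15 (Lipe), 0.071 (Plin1), 0.042 (Cfd), -0.19 (Fabp4) and -0.69 (Cidea). Adrb3, Cfd and Cidea were below the filter too. All 9 are named so that both signs are shown. Summed adipocyte marker signals were 1236 to 1796 in cafeteria and 1452 to 1797 in standard islets. These sums were mostly Fabp4, with means of 860 in cafeteria and 968 in standard islets, and Lipe, with 382 and 334. Beta cell markers, the check of the islet label, were 7 of 10 named, all far above the filter (Ins2, an insulin gene, at 21111 to 30943 in cafeteria and 18312 to 28655 in standard islets), and summed to 134978 to 180597 and 118350.2 to 168364. Acinar markers had 12 of 13 log2 folds above 0, against 48.1% of all probe sets tested. These log2 folds ran from -0.19 (Amy2a3) to 1.37 (Cela3b, limma adjusted p = 0.839). Their sums were 3135 to 11128 in cafeteria and 4042 to 10083 in standard islets. The largest means in these sums were those of Prss1, 1332 in cafeteria and 1059 in standard islets, and Amy2a3, 1111 and 1401. Macrophage markers had 8 of 8 below 0, from -0.95 (Cd74) to -0.0039 (Cd68). Their sums were 4129 to 6912 in cafeteria and 7231 to 12443 in standard islets. These were mostly Cd74 and Lyz2, and Lyz2 had means of 1728 in cafeteria and 2547 in standard islets. Whether the sums follow the number of macrophages was not tested. Cd74, with means of 2168 and 4412, was the 1 of these 8 whose groups did not overlap (1.76% of all tested). The sum of 12443 was that of standard array 3, 1 of the 3 doubted arrays. The part of acinar cells and macrophages in the members' signals was not tested. Array medians were 147 to 167 in cafeteria and 155 to 166 in standard islets. The precision of every value is set by how few arrays there are.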

How the data were processed

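The files hold the authors' MAS5 intensity for every probe set of the Affymetrix Rat Genome 230 2.0 array, unlogged; MAS5 is named in the submitters' processing notes, without a version. Each array's mean, trimmed by 2% at each end, was 500, and no scaling was added. Detection calls were not used here. The 57 control probe sets were left out of 31099. Gene names came from the platform annotation: 20826 probe sets have 1 symbol, 436 several and 9780 none here.

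Log2(signal + 16) was fitted in limma 3.58.1 (R 4.3.3) on diet alone, with an intensity trend; adjusted p-values are Benjamini-Hochberg over all 18625 probe sets tested. Exact permutation tests of single values used Python 3.11.15. The fit was tested on simulated data. Promoter windows are RefSeq's (GRCr8).

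The members, gene lists and alternatives were chosen with earlier results of these data known. Named are all members and, per list, up to 4 genes with the smallest unadjusted p, the 5 genes most like Fasn, and exceptions stated as such.

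Alternatives were other pseudocounts, scalings, filters and variance models, array weights, a replicate block, a beta-actin covariate, each array left out, 3 doubted arrays left out and all probe sets of a gene averaged.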

Additional observations from a re-analysis of the deposited data

How the results depend on the processing

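No member had an adjusted p under 0.05 in any of the 21 alternative fits, and no gene of the wider pathway did. The fold of Elovl6 stayed above 0 in 22 of 22 alternatives, between 0.17 and 0.31 (lowest adjusted p = 0.525, with array weights), and that of Me1 did in 22 of 22, between 0.0076 and 0.095. Members whose sign turned in some alternatives were: Srebf1 (-0.056) 0.021 with both probe sets averaged, -0.15 to 0.0067 with each array left out; Acly (0.0057) -0.040 with quantile normalisation, -0.028 with array weights, -0.035 without standard arrays 1 and 3 and cafeteria array 3, -0.033 to 0.052 with each array left out; Acaca (-0.034) 0.0067 with median centring, 0.12 with both probe sets averaged, -0.12 to 0.046 with each array left out. Further, Fasn (0.0082) -0.0093 with quantile normalisation, -0.0037 with array weights, -0.033 with the replicate block, -0.10 without the 3 arrays, -0.045 with both probe sets averaged, -0.056 to 0.071 with each array left out; Fads1 (0.032) -0.042 to 0.086 with each array left out; Fads2 (0.069) -0.069 without the 3 arrays, -0.072 to 0.17 with each array left out; Gpam (-0.15) 0.26 with the replicate block, 0.044 with both probe sets averaged, -0.33 to 0.26 with each array left out, where cafeteria array 5 was the only one whose omission turned the sign. The members' median was -0.052 without the 3 arrays and -0.018 to 0.049 with each array left out. Replicate number 5 occurs only in the cafeteria group. The log2 folds with the replicate block are therefore those without cafeteria array 5, and are not a separate result. The cause of these turns was not tested.

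Probe sets at an unadjusted p under 0.05, 1080 in the main setting, numbered 1717 with no filter, 1821 with array weights, 657 without the 3 arrays and 711 (without standard array 3) to 1674 (without standard array 1) with each array left out; without cafeteria array 1 there were 1655. Probe sets at an adjusted p under 0.05 numbered 0 to 2 with each array left out, 2 of them without standard array 2. Members at an unadjusted p under 0.05 were 0 to 1. Pathway genes at an unadjusted p under 0.05, 4 in the main setting, were 8 with median centring, 10 with array weights, 7 with the beta-actin covariate and 0 (without standard array 3) to 14 (without cafeteria array 1) with each array left out. List medians with each array left out were -0.081 to -0.019 for regulators, 0.038 to 0.093 for the supply list, 0.041 to 0.14 for elongation and desaturation, -0.15 to -0.056 for activation and glycerolipids and 0.11 to 0.20 for sterol targets. The median of the supply list was 0.096 with array weights; that of the malonyl-CoA list was 0.053 with array weights, 0.051 without the 3 arrays and -0.041 to 0.052 with each array left out.

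Replicate numbers are shared by the groups, but same-numbered arrays did not deviate together (r of deviations from the group means between -0.38 and 0.030 for 4 pairs). With the number as a replicate block, 582 probe sets and 0 pathway genes had an unadjusted p under 0.05, and Elovl6 had a log2 fold of 0.21. Only the cafeteria group has a number 5, so that log2 fold is also the one without cafeteria array 5. Detection calls were not used, so whether Scd and Gpam were above background was not tested.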
